A study of Caenorhabditis elegans with 2 samples.

Results

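The genes described here are those annotated as small nuclear RNA (snRNA) genes with lengths from 95 to 150 bp, other than the sls and smy genes. They numbered 54 of the 46926 genes annotated on the Caenorhabditis elegans assembly WBcel235, the same sequence as build ce11. By length, 6 fell in the U4 range (here 142 to 149 bp), 14 in the U5 range (117 to 126 bp) and 34 in the U6 range (95 to 108 bp). A short conserved core was then looked for inside each gene, and 5 U4, 12 U5 and 21 U6 genes had the core of their class. The remaining 16 genes had the length without the core, so for them the class that length gives was not borne out by the core. Among them, F36A4.23 was still 98.0% identical to the most common U6 sequence, and F35C11.9 was 75.5% identical to it. Binding of SNPC-4 was measured by chromatin immunoprecipitation and sequencing (ChIP-seq) on whole young adult worms of strain YL457, with both sexes pooled and the age given as unknown. All animals carried unc-119(ed3) III and the integrated transgene vrIs87, which holds unc-119(+) and, under the pie-1 promoter, a GFP fusion of GEI-11, an older name of SNPC-4. A further label speaks of GFP-FLAG at the C terminus. The pie-1 promoter is a germline promoter, and in whole animals a peak cannot be assigned to a tissue. There was 1 group of 2 biological replicates with no further condition, so each gene was set against the rest of the genome, and no test between conditions could be made. Sequencing depth is unknown from the peak lists.

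SNPC-4 is the worm counterpart of human SNAP190 and belongs to SNAPc, the complex that activates snRNA genes. SNAPc recognises the proximal sequence element, a short stretch upstream of snRNA genes, and recruits the transcription machinery. In animals U4 and U5 genes are transcribed by RNA polymerase II and U6 genes by RNA polymerase III, with the same complex used for both and a TATA box added at U6 genes. U4, U5 and U6 RNAs act together in the spliceosome as the U4/U6.U5 tri-snRNP: U4 holds U6 inactive by base pairing, U6 then joins the catalytic centre, and U5 aligns the exon ends.

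The 3 cores by which the classes were recognised are shown first, because they decide which genes are counted as U4, U5 or U6 below. The sequences are from the RefSeq copy of WBcel235, 5′ to 3′ on the gene's strand, and capitals mark the core.
U4 core in T11F9.15 (WBGene00014291, chromosome V): agctTTGCGCTggggc
U5 core in F07C6.5 (WBGene00014306, chromosome IV): tcgccTTTTACtaaag
U6 core in R07E5.16 (WBGene00014543, chromosome III): acaatACAGAGAagatt
The U6 core is the ACAGAGA box that pairs with the 5′ splice site, and the U5 core lies in the loop that contacts the exons. The letters of the U4 core were chosen after the gene sequences had been seen.

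Upstream of the 38 genes with a core, an ungapped alignment gave a shared stretch of 20 bases with 11 fixed letters: C at place 1, AAC at places 4 to 6, C at place 8, A at place 12, TGTC at places 15 to 18 and G at place 20. Each fixed letter stood in 82 to 97% of the 38 genes. The examples below are shown because the stretch is the feature that bound genes of all 3 classes had in common. Capitals mark the fixed letters that match.
U4 T11F9.15, bound (WBGene00014291, chrV:11980056-11980075, plus strand): CgaAAgcCgcgAttTGTCgG
U4 K03B8.10, bound (WBGene00014421, chrV:11391257-11391276, minus strand): CggAACcCaccAgaTGTCcG
U4 T11F9.16, unbound (WBGene00014518, chrV:11488477-11488496, minus strand): CggAAacCacaAaaTGTCgG
U5 F38E11.11, bound (WBGene00014366, chrIV:9444580-9444599, plus strand): CgaAACcCgcaAgagGaCgG
U5 Y69A2AR.36, bound (WBGene00194996, chrIV:2655227-2655246, minus strand): CggAACcCgcaAggTGTCgG
U5 C53B4.9, unbound (WBGene00014293, chrIV:8994687-8994706, plus strand): CggAACcCgggAggTGaCcG
U6 R07E5.16, bound (WBGene00014543, chrIII:10989609-10989628, plus strand): CggAACcCatgAcaTGTCtG
U6 F54D8.7, bound (WBGene00195001, chrIV:4864786-4864805, minus strand): CggAACcCgggAtgTGTCgt
U6 R07E5.16, unbound (WBGene00235209, chrIV:4866741-4866760, plus strand): CggAACcCgtgAcgTGTCgt
U6 F54C8.10, unbound (WBGene00014394, chrIII:9449500-9449519, plus strand): CgaAACctctacacTGTCaG
U6 R07E5.16, unbound (WBGene00014433, chrIV:13440833-13440852, plus strand): CatAACtCcaaAtaTGTCaG
Positions are given relative to the annotated start on the gene's strand, negative upstream. The first base of the element lay at -62 bp in all 5 U4 genes and at -63 to -59 bp in the 12 U5 genes. In U6 genes it lay further out, at -70 bp in all 8 bound genes. Since the element was derived from these genes, its frequency in them is a description. With at most 2 mismatches to the fixed letters it was found, between 100 and 11 bp before the start, at 35 of the 38 genes with a core and 0 of the 16 without one. The same search on the gene's strand matched 0.902% of all 46878 nuclear gene starts that could be scanned, and 1.40% on either strand. Among the 31 annotated snRNA genes with the lengths of U1 and U2 (163 to 187 bp), it matched 18 (58.1%). The gap to the 38 genes with a core depended on the mismatch limit. With at most 3 mismatches it matched 29 of these 31 genes (93.5%) and 92.1% of the 38.

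U6 genes had a further box. The 18 bases from 36 to 19 bp before the start are shown for 2 bound and 2 unbound copies, with TATATAA in capitals.
U6 R07E5.16, bound (WBGene00014543, chromosome III): gccccTATATAAacagcc
U6 F54D8.7, bound (WBGene00195001, chromosome IV): gccctTATATAAacaacc
U6 R07E5.16, unbound (WBGene00235209, chromosome IV): gcccttgtataaacgacc
U6 R07E5.16, unbound (WBGene00014433, chromosome IV): ggtcccTATATAAttgaa
TATATAA, searched 40 to 15 bp before the start on the gene's strand, was found at 8 of 8 bound and 7 of 13 unbound U6 genes, at 0 of the 17 U4 and U5 genes, and at 0.945% of all nuclear gene starts. In all 15 U6 genes with both features, exactly 19 bases separated the end of the element from the box. The last 4 bases of the annotated gene were T at 19 of 21 U6 genes and at none of the 17 U4 and U5 genes, against 4.14% of all nuclear genes; a T run ends RNA polymerase III transcripts. TATATAA and the terminal T run were added to the search after the sequences had been seen. The features planned beforehand were less specific. TATA in the same window stood at 8 of 8 bound and 9 of 13 unbound U6 genes. It also stood at 1 of 5 U4 genes, 1 of 12 U5 genes and 15.4% of all nuclear gene starts. A run of 4 T within 20 bp after the annotated end followed 16 of 21 U6 genes. Such a run also followed 1 of 5 U4 genes, 2 of 12 U5 genes and 35.7% of all nuclear genes.

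A gene was called bound when the thresholded set held a peak with its summit no more than 500 bp from the gene's start. Of the 54 genes, 22 were bound (40.7%, exact binomial 95% interval 27.6 to 55.0%), against 5.11% of all annotated genes. They were 4 of the 5 U4 genes with a core (80%, 28.4 to 99.5%), 10 of the 12 U5 genes (83.3%, 51.6 to 97.9%) and 8 of the 21 U6 genes (38.1%, 18.1 to 61.6%). None of the 16 genes without a core was bound, which allows a share of up to 20.6%. That range holds the 5.11% of all annotated genes, so this count does not set the 16 apart. These intervals cover counting error over genes only, and they treat the genes as independent. Neighbouring copies may not be: 6 unbound U6 genes lie in mam-3 and 3 in F54C8.6. Of the 16 genes without a core, 6 lie opposite exons of cyp-34A genes. The intervals may therefore be too narrow. Taking each replicate's own 1648 strongest peaks, as many as the thresholded set holds, gave the same 22 genes in replicate 1 and in replicate 2, where the share over all annotated genes was 5.15% and 5.36%. Of the 31 snRNA genes of U1 and U2 length, 20 were bound (64.5%), and the replicates' own strongest peaks gave 67.7% and 58.1%.

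The call itself places bound genes above unbound ones in peak strength, because the thresholded set holds the strongest pooled peaks. The gap between them was wide. The deposited signal value of a peak, whose scale no source used here states, orders peaks within a list. In the pooled list the lowest bound gene had a signal of 72.1 and rank 544 of 30000, and the highest unbound gene had 31.2 and rank 2203. The thresholded set is the 1648 strongest pooled peaks and ends at 36.6, so any list length between those ranks gives the same 22 genes. Among genes with a core, the highest unbound one was F54C8.10 with 26.4 and rank 2964. A summit anywhere in the pooled list was far less selective. The pooled list had one at 35 of the 38 genes with a core and 1 of the 16 without, but also at 46.6% of all annotated genes. Among protein-coding genes the share was 31.3%.

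**Figure D1:**
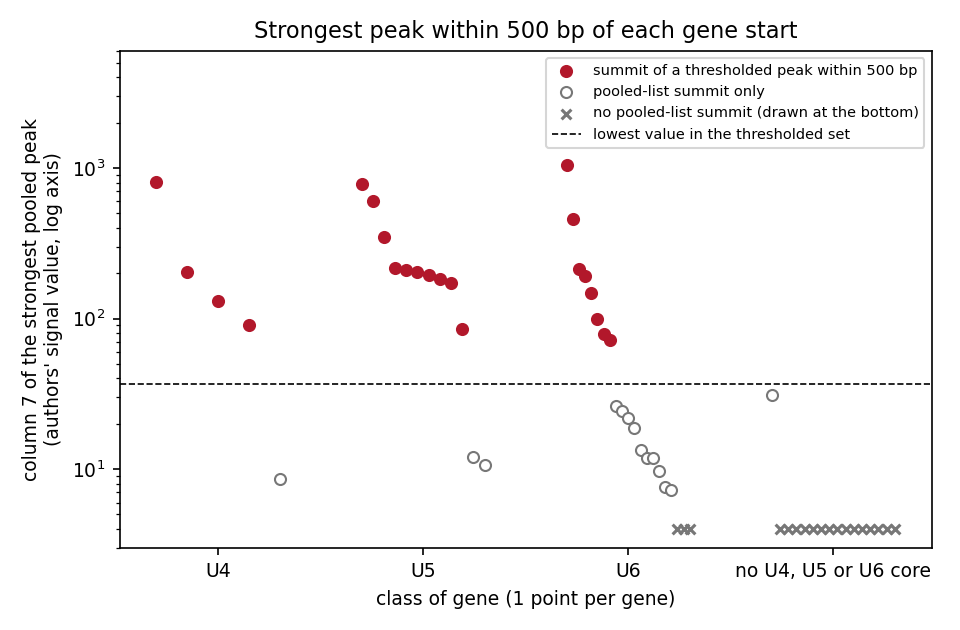
Signal value of the strongest pooled peak within 500 bp of each gene start (log axis), for U4, U5 and U6 genes and genes without a core, 1 point per gene. Filled points are bound genes, all at 72.1 or higher; open points are unbound genes, all at 31.2 or lower, below the dashed threshold at 36.6; crosses at the bottom are genes with no pooled summit.

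All 5 U4 genes lay on chromosome V, and 4 were bound. T11F9.15 (WBGene00014291, starting at V:11980118) had a pooled signal of 810.0, rank 24 of the thresholded set, with 400.2 in replicate 1 and 393 in replicate 2. Its start shares the peak with snr-4, which encodes an Sm core protein and starts on the other side of it. F10D2.13, in an intron of ugt-37, had 205, with 111.4 in replicate 1 and 84.9 in replicate 2. K03B8.10 had 130.02, with 73.8 and 61.0 in the replicates. A second gene also named T11F9.15 (WBGene00014517, starting at V:11478148), identical in sequence to the first, had 90.9, with 43.9 and 45.4. The pair of identical U4 genes thus differed in rank, at 24 and 378. The unbound U4 gene, T11F9.16, differs little in sequence (99.3% identity to the class's most common sequence) and has the upstream element with 1 mismatch. Its only pooled summit within 500 bp lay at 414 bp, past the gene's end, with a signal of 8.65 and rank 17654. Replicate 1 listed no summit there and replicate 2 listed one at rank 4765.

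Of the 12 U5 genes, 11 lay on chromosome IV and 11 in introns of protein-coding genes. The strongest, F32B5.9 on chromosome I in an intron of cpz-1, had a signal of 781, with 379 in replicate 1 and 409.9 in replicate 2. F38E11.11 (WBGene00014366) had 601, with 300.1 and 295, and F42C5.12 had 346, with 210.3 and 146. The next 6 genes fell in a narrow band: ZK897.3 had 218, C53D6.12 had 209, F07C6.5 (WBGene00014631) had 202, the second F38E11.11 (WBGene00014367) had 196, ZK897.4 had 184 and Y69A2AR.36 had 172. Their order is not stable, since their replicate values overlapped: ZK897.3 had 107 in both replicates, while WBGene00014367 had 67.0 in replicate 1 and 128 in replicate 2. The second F07C6.5 (WBGene00014306), in an intron of pin-2, was the weakest bound U5 gene, with 84.8 in the pooled list, 42.4 in replicate 1 and 33.2 in replicate 2. F07C6.5 (WBGene00014631), ZK897.3 and ZK897.4 all lie in introns of unc-31, which encodes a protein needed for release of dense-core vesicles, and each had a peak of its own.

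The unbound U5 genes C53B4.9 and C53D6.16 lie in introns of one gene, mltn-12. C53B4.9 had a signal of 10.7 at rank 13362 of the pooled list, and C53D6.16 had 12.1 at rank 11363. Both weak summits stood upstream, at -45 and -26 bp. The element was present at both genes, with 1 mismatch at C53B4.9 and 2 at C53D6.16. The bound gene C53D6.12 starts 1500 bp from C53D6.16 and had 209.

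The 8 bound U6 genes lay on chromosomes III, IV and V. R07E5.16 (WBGene00014543, starting at III:10989679, in an intron of dhc-4) had the strongest peak of all 54 genes, with a signal of 1042 at rank 14, 571 in replicate 1 and 495 in replicate 2. F54D8.7 (WBGene00195000, chromosome III) followed with 457, and 264 and 189.7 in the replicates. WBGene00014484 had 213, with 123 and 93.3, and WBGene00235247 had 192, with 80.4 and 117. WBGene00235188, which lies within an exon of K09C6.2, had 149, with 95.9 and 54.3. The 3 weakest were WBGene00195002 with 99.5, WBGene00195001 with 78.7 and WBGene00014266 with 72.1, for which the replicates gave 36.9 and 62.0, 41.9 and 38.1, and 61.8 and 29.5.

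Identical U6 genes were found in both states. The 102 bp sequence of R07E5.16 occurs at 14 annotated genes, of which 5 were bound and 9 were not. The 101 bp sequence of F54D8.7 occurs at 3 genes, all bound. Within the 14, the pooled signal ran from 1042 at the strongest to 7.29 among those with a pooled summit, so genes with one and the same transcribed sequence covered nearly the whole range.

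The 13 unbound U6 genes with a core fell into groups by position. A group of 6 copies within introns of mam-3 on chromosome IV, starting between 13435886 and 13443745, all had the element with at most 1 mismatch and TATATAA. Pooled signals there were 7.29 to 11.9, with 1 copy, WBGene00014430, lacking a pooled summit, and the neighbours WBGene00014432 and WBGene00014433 sharing 1 pooled peak. The neighbours WBGene00014434 and WBGene00014435 also shared a pooled peak, which was the weaker summit at WBGene00014435. A group of 3 copies in introns of F54C8.6 on chromosome III had the element with 2 mismatches. F54C8.10 among them had 26.4, WBGene00014393 had 21.9 and WBGene00014392 had 13.3. In both groups the element began at -69 bp, 1 base nearer the start than at the bound U6 genes. WBGene00235209 on chromosome IV, in an intron of str-172, had 24.1 at rank 3469. It starts 2076 bp from the bound F54D8.7 copy WBGene00195001, and has the element but no TATATAA.

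The last 3 unbound U6 genes, F32D1.12, T20D3.13 and B0205.15, were the ones without the element (5, 4 and 5 mismatches at the best match). F32D1.12 is 97.1% identical to the common U6 sequence and had a pooled summit of 18.8 at -216 bp. T20D3.13 (94.1% identity) and B0205.15 (81.5%) had no summit in any list. F36A4.23 and F35C11.9, counted here among the genes without a core, resemble them: their identity to U6 was 98.0% and 75.5%, they lacked the element, and they had no summit in any list. Together 5 U6-like genes with at least 75% identity lacked the element, and 0 of 5 were bound. With 5.11% of all annotated genes bound, this count does not set them apart from genes in general.

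The other 14 genes without a core had at most 48.6% identity to the class sequence of their length. Of the 16, 6 lie opposite exons of cytochrome P450 genes of the cyp-34A family on chromosome V: T10H4.16, T10H4.17, B0213.21, B0213.22, B0213.23 and B0213.24. C35D6.6 and F20D1.21 also overlap exons. C35D6.7, ZK1251.14, C41G6.17, F35B3.10 and W07G1.24 lie outside protein-coding genes, as does F56A12.5, the only one of the 16 with a pooled summit (31.2, at -146 bp). Its signal was 14.5 in replicate 1 and 13.6 in replicate 2, at ranks 3300 and 3189. In total 12 of the 16 had no summit in any of the lists. The same share over all annotated genes was not computed; the pooled list alone had a summit at 46.6% of them.

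Bound genes were alike in where the summit fell. The strongest summit lay upstream of the start at 19 of 22 bound genes, and within 100 bp of it at all 19. The median position was -53 bp at U4 genes, -52 bp at U5 genes and -35.5 bp at U6 genes. Across the replicates the class medians were -58.8 ± 3.18 bp at U4, -51.5 ± 2.83 bp at U5 and -39.8 ± 11.7 bp at U6 genes (mean ± SD, n = 2). The difference between the U6 and U5 means was about the size of the U6 SD, with medians of -48 bp at U6 and -49.5 bp at U5 genes in replicate 1, and -31.5 bp at U6 and -53.5 bp at U5 genes in replicate 2. Relative to the middle of the element, the median summit was displaced by -0.5 bp at U4 and -1 bp at U5 genes. At U6 genes it was displaced by 25 bp toward the gene, with 12.5 bp in replicate 1 and 29 bp in replicate 2. In the thresholded set the 2 strongest U6 peaks, WBGene00014543 and WBGene00195000, differed from the other 6. Their summits lay at 3.5 and -2.5 bp from the middle of the element. Replicate 2 gave the same split, with these 2 at -55 and -69 bp and the other 6 at -36 bp or nearer the gene. Replicate 1 did not give it. There WBGene00235188 lay at -62 bp, nearer the middle (-60.5 bp) than WBGene00014543 at -58 bp and WBGene00195000 at -55 bp.

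**Figure D2:**
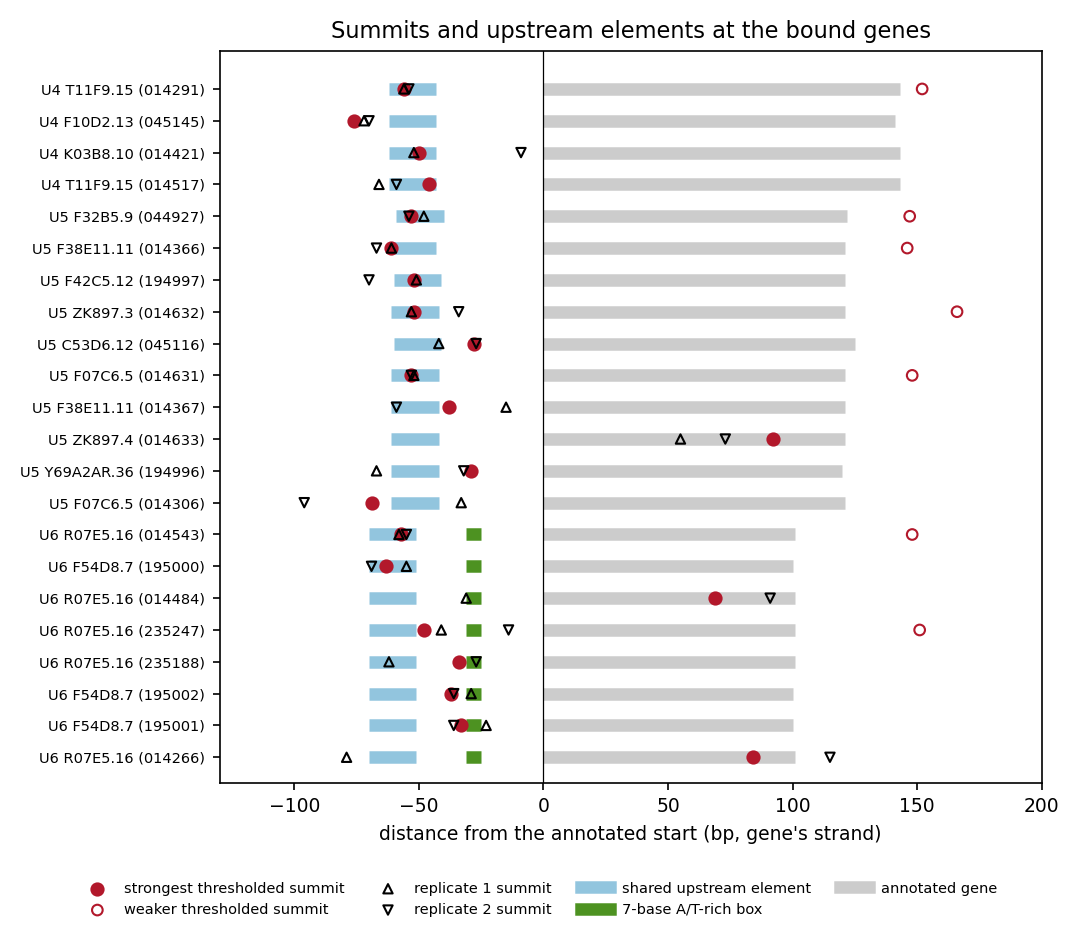
Positions relative to the annotated start (bp, gene's strand) at the 22 bound genes, grouped as U4, U5 and U6 and ordered by signal; labels give the last 6 digits of the gene identifier. Filled circles are the strongest thresholded summits, open circles weaker ones, triangles the replicates' summits, blue bars the element, green bars the 7-base box and grey bars the gene. At 19 genes the filled circle lies left of the start.

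The 3 genes with the strongest summit downstream of the start were ZK897.4, WBGene00014484 and WBGene00014266. At the U5 gene ZK897.4 it lay at 92 bp, and both replicates placed it inside the gene, at 55 and 73 bp. At the U6 gene WBGene00014484 it lay at 69 bp, with replicate 1 at -31 bp and replicate 2 at 91 bp. At the U6 gene WBGene00014266 it lay at 84 bp, with replicate 1 at -79 bp and replicate 2 at 115 bp. For the U6 pair the side of the start was therefore not settled by the replicates.

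At 7 bound genes a second thresholded summit lay downstream, beyond the annotated end. The U4 gene T11F9.15 (WBGene00014291) had it at 152 bp with a signal of 159. The U5 genes F32B5.9, F38E11.11 (WBGene00014366), F07C6.5 (WBGene00014631) and ZK897.3 had it at 147, 146, 148 and 166 bp, and the U6 genes WBGene00014543 and WBGene00235247 at 148 and 151 bp. The second summit lay 199 to 218 bp from the first. No pair of summits in any list was closer than 199 bp, so these distances lay at or near the smallest spacing the lists hold. Among all neighbouring thresholded summits, 2.60% lay less than 250 bp apart. Whether these second summits are separate sites was not tested.

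The strength of the peaks at bound genes differed little between classes. The median percentile within the thresholded set was 89.0 for U4, 91.8 for U5 and 89.9 for U6 genes, and 19 of the 22 stood at percentile 75 or higher. In the replicates the same medians were 88.8 ± 1.07, 91.5 ± 1.91 and 89.0 ± 0.493 (mean ± SD, n = 2), each within the 1648 strongest peaks of its list. All 22 peaks stood at the ceiling of the deposited −log10 q-value, 3.98, which 4814 pooled peaks share, so that column did not order them.

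The replicates were close at these genes. Every one of the 22 pooled summits had a peak within 200 bp in both replicates' lists. The log2 ratio of replicate 1 to replicate 2 had a median of 0.08 (interquartile range -0.09 to 0.40), against 0.16 (-0.37 to 0.64) over the 1595 of 1648 thresholded peaks matched in both lists. Without sign, the median log2 ratio was 0.32 at the 22 genes and 0.52 over all matched thresholded peaks. It was 0.36 over those at rank 544 or better, so by this measure the 22 differed little from peaks of similar strength. The ratio at a gene compares the strongest peak of each list, and only WBGene00014266 differed by more than 2-fold (log2 ratio 1.07). That is 4.55% of the 22, against 21.1% of all matched thresholded peaks and 9.26% of those at rank 544 or better. At WBGene00014266 the strongest summits lay 194 bp apart, so they may not be the same peak. Its upstream summits had 61.8 at -79 bp in replicate 1 and 15.9 at -96 bp in replicate 2. At WBGene00014484 the strongest summits lay 122 bp apart. The replicates' strongest summits lay within 50 bp of each other at 19 of the 22 genes. Spearman's rho between the replicates' values was 0.80 over the 22 genes, given as a description.

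**Figure D3:**
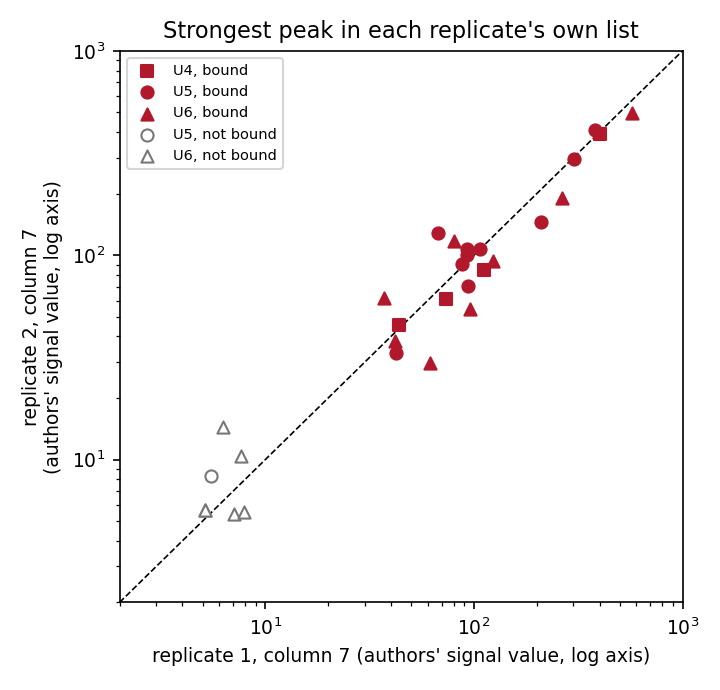
Signal value of the strongest peak within 500 bp of the start in replicate 1 (horizontal) and in replicate 2 (vertical), both on log axes, for genes with a core that have a summit in both lists. Filled symbols are bound and open symbols unbound U4, U5 and U6 genes, and the dashed line marks equal values; bound genes reach 571 and 495, and unbound genes stay at or below 7.88 and 14.5.

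The number of mismatches in the element did not order the bound genes by signal. The median pooled signal was 184 at the 7 bound genes with 0 mismatches, 199 at the 12 with 1, and 601 at the 3 with 2, and Spearman's rho was 0.05 over the 22. Among genes with a core, 7 of 10 with 0 mismatches were bound, 12 of 18 with 1 and 3 of 7 with 2. With 4 and 5 mismatches it was 0 of 1 and 0 of 2, beside 5.11% of all annotated genes. The 3 copies in F54C8.6 are among the unbound genes with 2 mismatches. Bound and unbound genes carrying the element differed at some of its free places, which were chosen after the letters had been seen. Place 9 held G at 18 of 22 bound and 3 of 13 unbound genes, and place 10 held C at 17 of 22 bound and 3 of 13 unbound genes. Place 19 held A at 0 of 22 bound and 9 of 13 unbound genes. The 13 unbound sequences are not independent, since 9 of them come from the 2 groups of neighbouring U6 copies. At the 4 unbound genes outside those groups, place 9 held G at 3, place 10 held C at 1 and place 19 held A at 0, so the differences at places 9 and 19 came from the groups.

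Repeated sequence moved with the bound state at U6 genes. The share of 32-base words within 250 bp of the start that occur once in the genome was counted, because reads from repeated copies may not be placed. It had a median of 80.2% (62.1 to 83.8%) at bound U6 genes and 54.5% (40.9 to 98.7%) at unbound ones. In the mam-3 group it was 40.9 to 54.5%. The order was the other way round at U5 genes, with a median of 82.0% at bound genes and 92.3 and 96.8% at the 2 unbound ones, and at U4 genes, with 76.5% at bound genes and 79.8% at T11F9.16. At F54C8.10, the strongest unbound gene with a core, it was 77.4%, inside the range of the bound U6 genes. At WBGene00235209 it was 81.1%, above the median of the bound U6 genes, and at the 3 U6 genes without the element it was 75.5 to 98.7%. Over the 22 bound genes of all classes, Spearman's rho between this share and the pooled signal was 0.52, given as a description. The part of repeated sequence in the result was not tested. No source used here states the read length or what was done with reads that match several places.

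**Figure D4:**
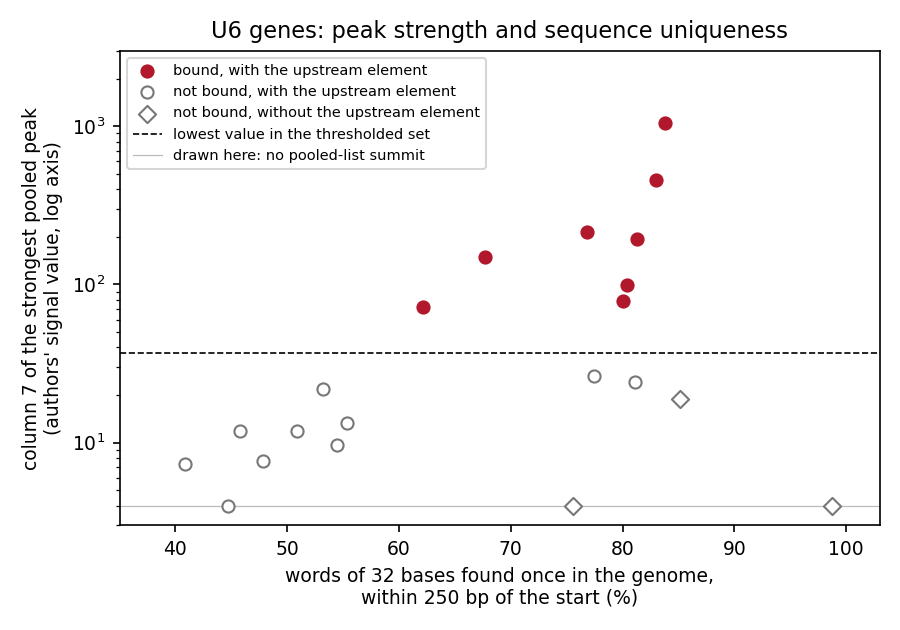
Signal value of the strongest pooled peak (log axis) against the share of 32-base words within 250 bp of the start that occur once in the genome, for the 21 U6 genes with a core. Filled circles are bound genes, open circles unbound genes with the element and diamonds unbound genes without it; bound genes lie between 62.1 and 83.8%, and the unbound genes spread from 40.9 to 98.7%.

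Other annotations shared many of the peaks. Of the 22 bound genes, 16 lie inside a protein-coding gene, 12 of them in an intron on the same strand and 3 in an intron on the opposite strand. Of all 38 genes with a core, bound or not, 31 lie inside a protein-coding gene, so this setting was not particular to bound genes. At 13 of the 22 another gene start lay within 500 bp of the summit. Most were noncoding RNA genes, and the start of a protein-coding gene was among them at 2: snr-4 at T11F9.15 and F42C5.9 at F42C5.12. At C53D6.12 and 2 F54D8.7 copies (WBGene00195001 and WBGene00195002) on chromosome IV a piRNA gene also started there. A peak cannot be divided between starts that share it.

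Genes for the proteins that work with these RNAs were mostly without a thresholded peak, as were protein-coding genes in general. Of 36 listed genes, 34 were found in the annotation and 4 of these were bound. That share is above the 4.04% of all protein-coding genes, but it rests on 4 genes and the difference was not tested. They were 1 of 8 genes of SNAPc and the TATA-binding protein, 1 of 12 genes of U4/U6.U5 proteins, 0 of 7 Lsm genes and 2 of 7 Sm genes. The bound ones were snpc-3.4, a SNAPc subunit gene (signal 45.4, summit at 35 bp), prp-8, whose protein forms the spliceosome's core scaffold (42.5, at -349 bp), snr-1 (83.0, at -391 bp) and snr-4 (810.0, at -339 bp). The snr-4 summit is that of the U4 gene T11F9.15, and snx-13 also starts near the snr-1 summit. The other 3 peaks stood at 83.0 or lower, against a median of 199 at the 22 bound U4, U5 and U6 genes, and the prp-8 and snr-1 summits lay far from the start. Each replicate's own strongest 1648 peaks also gave 4 bound genes, beside 3.81% of protein-coding genes in replicate 1 and 3.76% in replicate 2.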

How the data were processed

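The authors deposited peak lists on build ce11: 1 per replicate and 1 on both replicates pooled (30000 peaks each, meant for an irreproducible discovery rate step and made with a control alignment, per the deposited text records), and a thresholded set of 1648. Each peak has a deposited signal value, a deposited −log10 q-value and a summit offset. No source used here gives the aligner, the caller, their versions or the threshold. The control library was not analysed here. Signal was compared only within a list, except in the replicate ratios, whose scales may differ. Lists on build ce10 were not used.

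Genes came from the Ensembl 115 annotation, and sequence from RefSeq's WBcel235. A gene's value is that of the strongest summit within 500 bp of its start; replicates were matched within 200 bp. The element came from aligning 30-base stretches at free offsets between 100 and 11 bp before the start, with letters kept at 80% of genes. A narrower window lined up by position had been planned, and was replaced because U6 elements lie further out. Identity is by edit distance to the most common sequence of the length class. Intervals are exact binomial at 95%. Computation used Python 3.11.15, pandas 2.3.3 and scipy 1.17.1, and was tested on simulated data with planted summits and elements. The genes and lists were chosen with earlier results of these data known. Named were every U4 and U5 gene, the 8 strongest bound and 5 strongest unbound U6 genes, genes with no summit, those without a core, those with downstream summits, and bound genes of the protein lists; other U6 copies, and the groups in mam-3 and F54C8.6, were singled out after their values were seen. No test across genes was made. The alternatives were other windows, overlaps, thresholds, replicates alone, match distances and mismatch limits.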

Additional observations from a re-analysis of the deposited data

How the results depend on the processing

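The 22 bound genes (4 U4, 10 U5 and 8 U6) were counted again with windows of 250 and 1000 bp, with any overlap, with the 824 strongest thresholded peaks, with classes by core, with shared peaks counted once and with each replicate alone, and the counts were the same each time. With the 3296 strongest pooled peaks there were 24, with 10 in the U6 length range. The median percentile of bound peaks was 99.4 for U4, 99.55 for U5 and 99.4 for U6 genes within the whole pooled list, because that list holds far more weak peaks. With 1 replicate left out, the median summit ran from -61 to -56.5 bp at U4, -53.5 to -49.5 bp at U5 and -48 to -31.5 bp at U6 genes. The median percentile then ran over 88.0 to 89.6 for U4, 90.1 to 92.8 for U5 and 88.6 to 89.3 for U6 genes. Peaks matched within 100 bp instead of 200 bp were found in both replicates at 21 genes, and within 500 bp at 22. The element matched 28 genes with at most 1 mismatch and 38 with at most 3. With at most 3, the matches were 35 of the 38 genes with a core and 3 of the 16 without one. Of the 31 snRNA genes of U1 and U2 length, it matched 11 (35.5%) with at most 1 mismatch and 29 (93.5%) with at most 3. The share over all nuclear gene starts was 0.322% with at most 1 mismatch and 6.22% with at most 3. The protein lists gave 4 bound genes with either replicate left out, an alternative chosen after seeing the data. Depth is unknown, and 2 replicates allow no test. No paired analysis was possible because there is 1 group and no contrast.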
